A study of Mus musculus with 6 samples.

Results

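The Rbfox, Mbnl, Ptbp and Celf genes encode RNA-binding proteins that select exons in a tissue-dependent manner. The 10 genes described here, Rbfox1, Rbfox2, Rbfox3, Mbnl1, Mbnl2, Mbnl3, Ptbp1, Ptbp2, Celf1 and Celf2, were chosen by symbol from the 23038 genes listed for each library, and all 10 were found. They were measured by mRNA-seq in 6 libraries of mouse primary OPCs (mOPCs), the glial precursors of myelinating oligodendrocytes. The cells had been purified by immunopanning from mouse embryos (E14.5) and were collected 72 h after transfection with control siRNAs (siNC, 3 libraries) or with siRNAs against Qk (siQk, 3 libraries). There were 3 different siRNAs against Qk, and which library received which of them is not given in the sources used here. An effect of loss of Qk and any effect of an siRNA on other transcripts therefore cannot be told apart. In such bulk cultures fewer cells of a type and less RNA per cell cannot be told apart either.

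These families act on pre-mRNA through short sequence motifs. Rbfox proteins bind GCAUG, and Rbfox3 is the NeuN antigen of neurons. Mbnl proteins bind YGCY and are sequestered by expanded CUG repeats in myotonic dystrophy, where Celf1, which binds GU-rich RNA, acts on many of the same exons in the opposite direction. Ptbp1 binds pyrimidine-rich RNA, is abundant in non-neuronal cells and precursors, and represses neuronal exons. Ptbp2 replaces it as neurons differentiate, and its own transcript is held down by Ptbp1 through skipping of an exon, which exposes the transcript to decay. Qki proteins bind ACUAAC or ACUAAU with a nearby UAAC or UAAU, in introns and in 3′UTRs, so that transcripts of other splicing regulators can be among the RNAs with such motifs.

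Because Qk was the gene knocked down, this code was searched for in the 3′UTRs of the members, taking the longest annotated form. ACTAAC or ACTAAT was looked for on the sense strand of the transcript only, alone or with TAAC or TAAT at a distance of 1 to 20 bases on either side. Of the 10 genes, Mbnl1 (1 match), Mbnl2 (2), Mbnl3 (5) and Celf2 (3) carried ACTAAC or ACTAAT, whereas Rbfox1, Rbfox2, Rbfox3, Ptbp1, Ptbp2 and Celf1 carried none. Matches with the second part nearby were present in Mbnl2, Mbnl3 and Celf2, and in Qk itself, which had 5 matches, 1 of them with the second part. Among these carriers, the transcript of Mbnl1, whose match lacked the second part, rose in siQk, and those of Mbnl2 and Celf2 were not called changed. Mbnl3, with 5 matches, 2 of them with the second part, was too low to be tested. Introns, where Qki proteins also bind, were not searched. Whether matches go with a change in transcript level was not tested. The sites below, with the motif in capitals, come from Mbnl1, Mbnl2, Celf2 and Qk. They lie at chr3:60627089-60627118 (plus strand) for Mbnl1, chr14:120430955-120430969 (plus strand) for Mbnl2, chr2:6546708-6546726 (minus strand) for Celf2 and chr17:10206550-10206567 (minus strand) for Qk, on GRCm38, the assembly of mm10.
Mbnl1: ttatttgctagtACTAATcaatcaaagggc
Mbnl2: ACTAATtgttgTAAC
Celf2: ACTAATgtgcagttcTAAC
Qk: TAATaccaacctACTAAC

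Such matches are frequent in 3′UTRs. The first part was present in 36.2% and both parts in 15.2% of the 3′UTRs of 10825 tested genes, and these shares depended on length. Among 3′UTRs of a length like that of Mbnl1 (3395 bases, the shorter being at least 0.8 times as long as the longer), 65.5% held the first part. The corresponding share was 57.9% for Mbnl2 (2748 bases), 68.3% for Mbnl3 (3738 bases) and 89.8% for Celf2 (7381 bases). Both parts were held by 24.7%, 30.1% and 54.4% of 3′UTRs of like length for Mbnl2, Mbnl3 and Celf2. The 3′UTR of Rbfox2 (5172 bases) had no match, where 77.9% of 3′UTRs of like length had one, and that of Celf1 (6132 bases) had none, where 82.2% had one. A match is not a binding site, and the absence of a match says only that these letters are not in the annotated 3′UTR.

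The libraries held 58166490 to 141045937 tags, siNC replicate 1 being the smallest and having 3.11% of its tags on Rn45s, a ribosomal RNA gene (the other 5 had 0.169% to 0.389%). Qk itself had 209, 206 and 163 RPKM in siNC against 51.3, 76.6 and 36.2 RPKM in siQk, without overlap, and 28.4% of its siNC mean remained. RPKM is the number of tags scaled by exon length in kilobases and by the library's total. All fold changes divide siQk by siNC, rest on counts scaled with TMM factors and were tested with edgeR's quasi-likelihood method, SE being the standard error. Calls required P under 0.01 together with an FDR under 0.1 over the 12505 genes tested, whose median log2 fold change was 0.01. With library size only this median was 0.16, a shift that RPKM values also carry, since RPKM does not use the TMM factors. Markers of OPCs were present in every library, with Olig2 at 124 RPKM or more and Pdgfra at 71.1 RPKM or more.

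Of the 10 transcripts, 9 were tested, and 4 rose in siQk: Rbfox1, Rbfox2, Mbnl1 and Ptbp1. Over all tested genes, 13.8% were called higher. None of the members was called lower, against 17.2% of all tested genes. This split depended on scaling, with 1730 of 3879 calls higher under TMM factors and 2989 of 4354 with library size only, where the same 4 members and Celf1 were called higher and 0 lower. At an unadjusted P below 0.05 there was 1 lower member, Mbnl2, and DESeq2 and edgeR's exact test called 0 lower. Rbfox1 passed the filter on low counts only through its siQk libraries, so that its place among the tested genes already required a difference, and Mbnl3 did not pass. Among the 8 transcripts over the minimum in both groups, 3 rose. RPKM ranges lay apart with siQk higher for 5 of the 9 tested members, but this was so for 41.9% of all tested genes. Ranges with siQk lower were apart for 0 members and for 16.4% of all tested genes. The plot of levels by library shows these values.

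**Figure D1:**
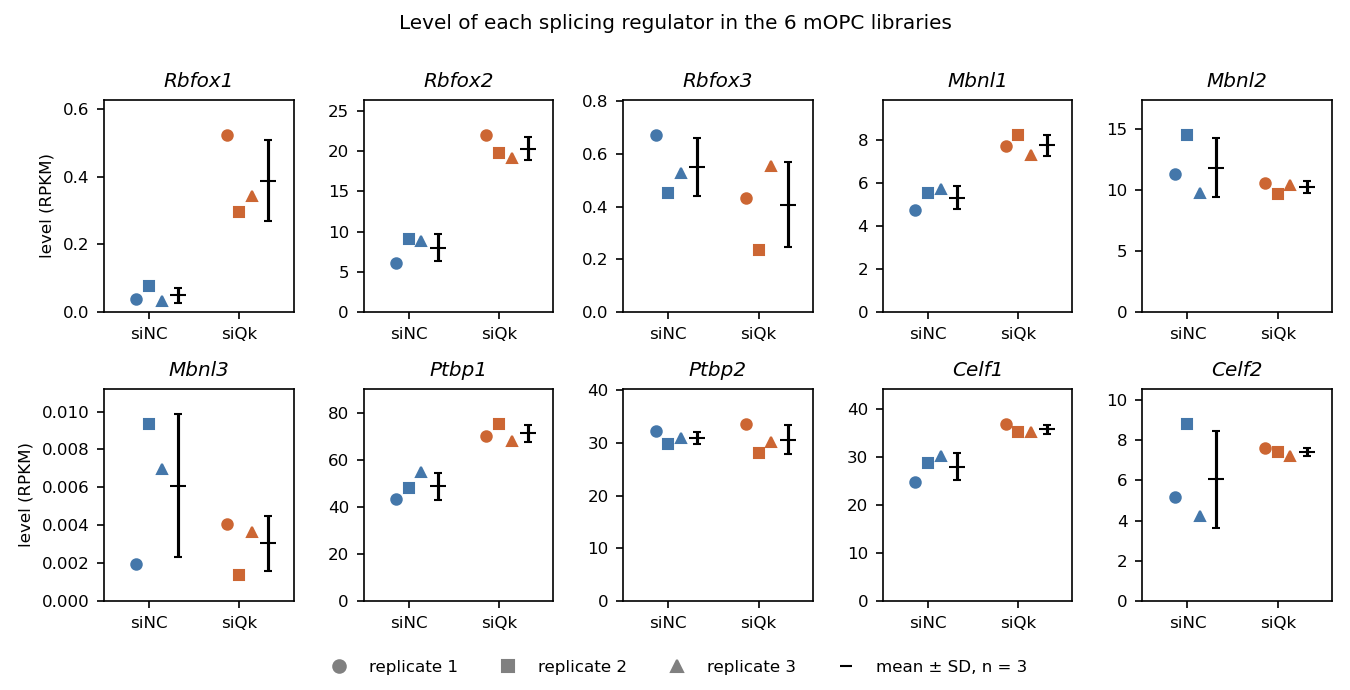
Level of each of the 10 transcripts in RPKM (vertical axes, linear from 0, a scale of its own for each gene) in the 3 siNC and 3 siQk libraries; symbols are single libraries and the bar is the mean with its SD. The siQk points of Rbfox1, Rbfox2, Mbnl1, Ptbp1 and Celf1 lie above all siNC points, while those of the other 5 genes overlap with siNC.

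In siNC, per exon length, Ptbp1 had the highest level (48.9 ± 5.76 RPKM, SD, n = 3). It was followed by Ptbp2 (31.0 ± 1.16 RPKM) and Celf1 (28.0 ± 2.8 RPKM), whose ranges overlapped. Next came Mbnl2 (11.9 ± 2.45 RPKM) and then Rbfox2 (7.98 ± 1.68 RPKM), Celf2 (6.07 ± 2.41 RPKM) and Mbnl1 (5.32 ± 0.518 RPKM). The range of Celf2 overlapped with those of Rbfox2 and Mbnl1, which did not overlap with each other. Rbfox3 (0.551 ± 0.111 RPKM), Rbfox1 (0.0494 ± 0.0231 RPKM) and Mbnl3 (0.00609 ± 0.00376 RPKM) were far lower. In siQk the order differed, with Celf1 (35.8 ± 0.897 RPKM) above Ptbp2 (30.7 ± 2.76 RPKM) and Rbfox2 (20.3 ± 1.46 RPKM) above Mbnl2 (10.2 ± 0.492 RPKM), in both cases without overlap of the ranges. Mbnl1 (7.74 ± 0.469 RPKM) and Celf2 (7.40 ± 0.202 RPKM) overlapped, as did Rbfox3 (0.408 ± 0.161 RPKM) and Rbfox1 (0.387 ± 0.119 RPKM).

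Among the members over the minimum in both groups, the largest fold change belonged to Rbfox2, the family member that is expressed in many tissues. Rbfox2 (Entrez gene 93686) lies on the minus strand of chromosome 15 (GRCm38, 77078990 to 77307004). It was measured at 6.05, 9.06 and 8.84 RPKM in siNC replicates 1 to 3 and 22.0, 19.8 and 19.2 RPKM in the siQk replicates. Every siQk library stood above every siNC library by a wide margin, and siNC replicate 1 was the lowest. The siNC values came from 2573, 7346 and 8545 tags and the siQk values from 22654, 11951 and 17761 tags, so that counting error was small. The transcript rose 2.3-fold (95% interval 1.85 to 2.86), with a log2 fold change of 1.2 (SE = 0.13, edgeR quasi-likelihood FDR = 0.00152). The call held under each of the 16 alternative settings, with log2 fold changes from 1.07 to 1.34.

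Rbfox1, the muscle and neuron member of the family, was near the lower limit of detection in siNC and rose from there. Rbfox1 (Entrez gene 268859; chromosome 16, 5885355 to 7411526, plus strand) had 13, 49 and 26 tags in siNC and 429, 143 and 253 tags in siQk. Per length this was 0.0384, 0.076 and 0.0338 RPKM in siNC and 0.523, 0.296 and 0.344 RPKM in siQk. The lowest siQk library was thus well above the highest siNC library, siNC replicate 2. The log2 fold change was 2.81 (SE = 0.39, edgeR quasi-likelihood FDR = 0.00297), a 7.02-fold rise with a 95% interval from 3.72 to 13.2. Without siQk replicate 1, the highest library, the transcript fell below the minimum average logCPM of 0 and was not tested, and under the other 15 settings it was called with log2 fold changes from 2.53 to 3.30. Even in siQk, Rbfox1 made up only 1.82 ± 0.421% of the summed RPKM of the family (SD, n = 3).

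Rbfox3 (Entrez gene 52897), by contrast, was not called. It was at 0.672, 0.454 and 0.528 RPKM in siNC and at 0.432, 0.236 and 0.556 RPKM in siQk. The groups overlapped, with siQk replicate 2 the lowest and siNC replicate 1 the highest. Its log2 fold change was -0.57, with a 95% interval from -1.38 to 0.23 that spans a fall to 0.385 of the siNC level and a rise of 1.17-fold (edgeR quasi-likelihood FDR = 0.219). The difference between Rbfox1 and Rbfox2 in size of change was followed as a ratio within each library, which no scaling of libraries can move. The log2 ratio of Rbfox1 to Rbfox2 RPKM was -7.41 ± 0.57 in siNC and -5.75 ± 0.34 in siQk (SD, n = 3 each), without overlap (difference 1.66, two-sided exact permutation p = 0.1, which no comparison of 3 with 3 libraries can go below, and p = 0.133 after adjustment over 4 such ratios). Its size rests on the low siNC levels of Rbfox1, since with 0.1 RPKM added before the ratio the difference was 0.33 (two-sided exact permutation p = 0.2). Summed over the 3 genes, the Rbfox level was 8.59 ± 1.59 RPKM in siNC against 21.1 ± 1.57 RPKM in siQk, and Rbfox2 made up 92.7% of it in siNC and 96.2% in siQk.

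In the Mbnl family, Mbnl1 rose and the more abundant Mbnl2 had a log2 fold change below 0 that did not pass the test. Mbnl1 (Entrez gene 56758; chromosome 3, 60472830 to 60629750, plus strand), the main muscle member, was at 4.73, 5.51 and 5.71 RPKM in siNC and at 7.73, 8.21 and 7.27 RPKM in siQk. Each siQk library lay above each siNC library. Its rise was 1.31-fold (95% interval 1.17 to 1.47), with a log2 fold change of 0.39 (SE = 0.07, edgeR quasi-likelihood FDR = 0.00706), and it was called under each of the 16 settings. Mbnl2 (Entrez gene 105559; chromosome 14, 120275669 to 120431697, plus strand), prominent in brain, was at 11.3, 14.5 and 9.74 RPKM in siNC and at 10.6, 9.68 and 10.4 RPKM in siQk. The siQk values sat close together at the lower end of the siNC range, and siNC replicate 2 stood highest. The log2 fold change of Mbnl2 was -0.37 (95% interval -0.72 to -0.013, edgeR quasi-likelihood FDR = 0.0933), and its unadjusted P of 0.044 in that edgeR test was above the cutoff. Without siNC replicate 3 it was called lower, at -0.51.

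Within the family, the balance of Mbnl2 and Mbnl1 differed between the groups. The log2 ratio of Mbnl2 to Mbnl1 RPKM was 1.26, 1.40 and 0.77 in siNC and 0.46, 0.24 and 0.52 in siQk. All siQk ratios were lower, by 0.74 on average (two-sided exact permutation p = 0.1, the smallest possible; p = 0.133 after Benjamini-Hochberg adjustment over the 4 ratios tested). Mbnl1 accordingly made up 31.3 ± 4.99% of the family's summed RPKM in siNC and 43.0 ± 2.54% in siQk, while the sum itself was 17.2 ± 2.5 RPKM and 18 ± 0.313 RPKM. Mbnl3 (Entrez gene 171170, on the X chromosome), known from placenta and regenerating muscle, added almost nothing, with 1, 9 and 8 tags in siNC and 5, 1 and 4 tags in siQk. It was below the minimum and not tested, and no fold is given.

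**Figure D2:**
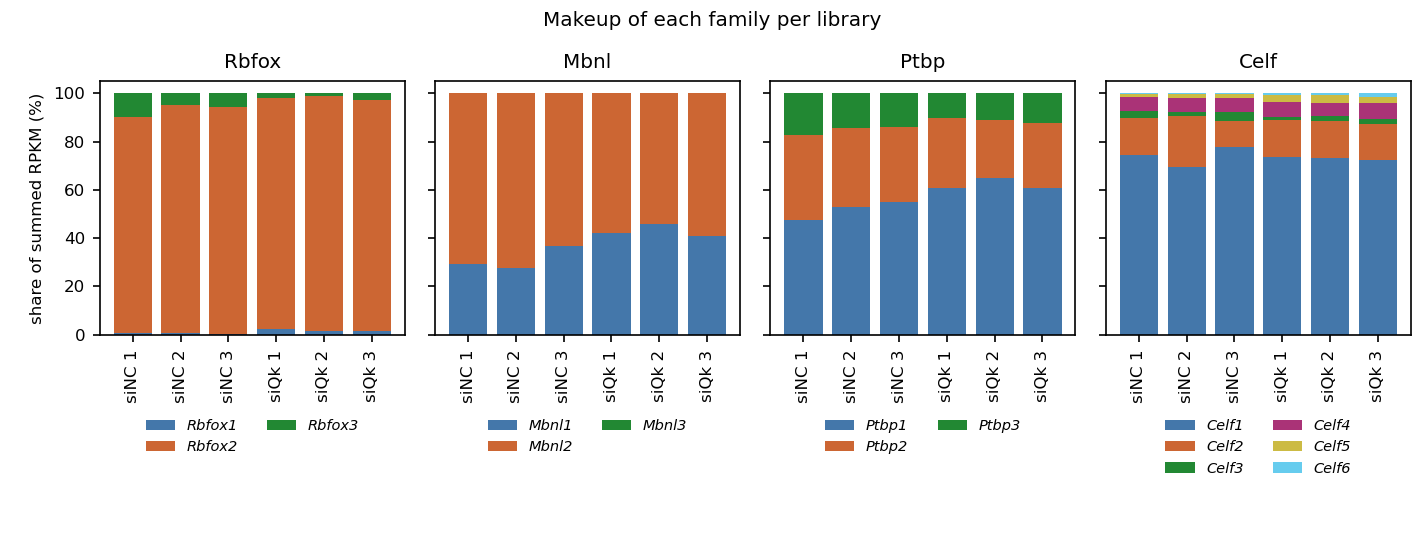
Share of each gene in the summed RPKM of its family (vertical axis, percent, stacked from 0) for each of the 6 libraries; the Ptbp panel includes Ptbp3 and the Celf panel Celf3 to Celf6. The Mbnl1 share runs from 27.5% to 36.9% in siNC and from 41% to 45.9% in siQk, and the Ptbp1 share from 47.5% to 55% and from 60.7% to 64.8%.

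Ptbp1 rose while Ptbp2 did not pass the test. Ptbp1 (Entrez gene 19205; chromosome 10, 79854427 to 79864771, plus strand) was at 43.5, 48.3 and 54.9 RPKM in siNC and at 70.4, 75.3 and 68.2 RPKM in siQk. The groups were apart, and siNC replicate 1 was again the lowest. The log2 fold change was 0.40 (SE = 0.074, edgeR quasi-likelihood FDR = 0.008), a 1.32-fold rise with a 95% interval from 1.17 to 1.49, called under each of the 16 settings. Ptbp2 (Entrez gene 56195; chromosome 3, 119718742 to 119784466, minus strand) was at 32.2, 29.9 and 31.0 RPKM in siNC and at 33.6, 28.2 and 30.2 RPKM in siQk, so that the siQk libraries held both the highest and the lowest value. Its log2 fold change was -0.17, with a 95% interval from -0.39 to 0.051 (edgeR quasi-likelihood FDR = 0.187), and -0.018 with library size only.

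The ratio of Ptbp2 to Ptbp1 RPKM was 0.741, 0.619 and 0.565 in siNC and 0.477, 0.374 and 0.443 in siQk. On the log2 scale this was -0.65 ± 0.20 in siNC and -1.22 ± 0.18 in siQk (SD, n = 3 each), a difference of -0.57 without overlap (two-sided exact permutation p = 0.1, the smallest possible; adjusted p = 0.133 over the 4 ratios). Ptbp1 thus outnumbered Ptbp2 per length in every library, and more so in siQk. Ptbp3, listed under its older symbol Rod1, had 14.3 ± 1.37 RPKM in siNC, 12.9 ± 0.918 RPKM in siQk and a log2 fold change of -0.31 that was not called (edgeR quasi-likelihood FDR = 0.07, P above the cutoff).

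Celf1 and Celf2, the broadly expressed members of the Celf family, were not called. Celf1 (Entrez gene 13046; chromosome 2, 90940382 to 91019497, plus strand) was at 24.9, 28.8 and 30.3 RPKM in siNC and at 36.9, 35.3 and 35.3 RPKM in siQk. The groups did not overlap on this scale, but its log2 fold change after TMM normalization was 0.21, with a 95% interval from 0.053 to 0.36, and its P of 0.0159 was above the cutoff (edgeR quasi-likelihood FDR = 0.0449). Celf1 was called higher by DESeq2 (log2 fold change 0.20), under scaling by the upper quartile (0.27) or by library size only (0.36). Celf2 (Entrez gene 14007; chromosome 2, 6539694 to 7509563, minus strand) was at 5.16, 8.80 and 4.24 RPKM in siNC and at 7.60, 7.39 and 7.20 RPKM in siQk. The siQk libraries lay close together within the wide siNC range, which siNC replicate 2 headed.

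The spread among the siNC libraries left the difference in Celf2 poorly determined. Its log2 fold change was 0.13, with a 95% interval from -0.46 to 0.73 (edgeR quasi-likelihood FDR = 0.694). It was 0.49 without siNC replicate 2 and -0.086 without siNC replicate 3, called in neither. The log2 ratio of Celf2 to Celf1 RPKM was -2.27 ± 0.57 in siNC and -2.28 ± 0.018 in siQk (two-sided exact permutation p = 0.9), and it ranged from -2.84 to -1.71 in siNC. Replicate 2 of siNC was also the highest siNC library for Rbfox1, Rbfox2 and Mbnl2. It had the highest neuron marker sum (298 RPKM, against 209 and 214 RPKM in the other siNC libraries) and the highest microglia marker sum (3.32 RPKM, against 0.721 and 1.3 RPKM). Mobp, Ermn and Mog were highest there too, whereas the other myelin and mature oligodendrocyte markers were highest in siNC replicate 1. The part of these markers in the Celf2 and Mbnl2 values was not tested. Most of that microglia sum was P2ry12 (3.2 RPKM), while Cx3cr1, Tmem119 and C1qa did not exceed 0.00682 RPKM anywhere.

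Of the remaining Celf genes, whose expression is largely neural, Celf5 and Celf6 rose. Celf5 was at 0.465, 0.694 and 0.643 RPKM in siNC and at 1.43, 1.52 and 1.21 RPKM in siQk (log2 fold change 1.06, SE = 0.16, edgeR quasi-likelihood FDR = 0.004). Celf6 had 23, 32 and 61 tags in siNC and 193, 104 and 290 tags in siQk (log2 fold change 1.96, SE = 0.33, edgeR quasi-likelihood FDR = 0.00545). Like Rbfox1 it was over the minimum only through siQk. Celf4, 2.17 ± 0.258 RPKM in siNC against 2.96 ± 0.344 RPKM in siQk, and Celf3, at 1.04 ± 0.363 and 0.903 ± 0.107 RPKM, were not called (log2 fold changes 0.30 and -0.35). Of the 5 genes of these families outside the 10, all tested, 2 rose and 0 were called lower, also by DESeq2 and edgeR's exact test, and 4 had an unadjusted P below 0.05, with Ptbp3 the lower one among them. Without any single siQk library, Celf6 was below the minimum and 1 of these genes was called. In the main fit, 13.8% of all tested genes were called higher and 17.2% lower.

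**Figure D3:**
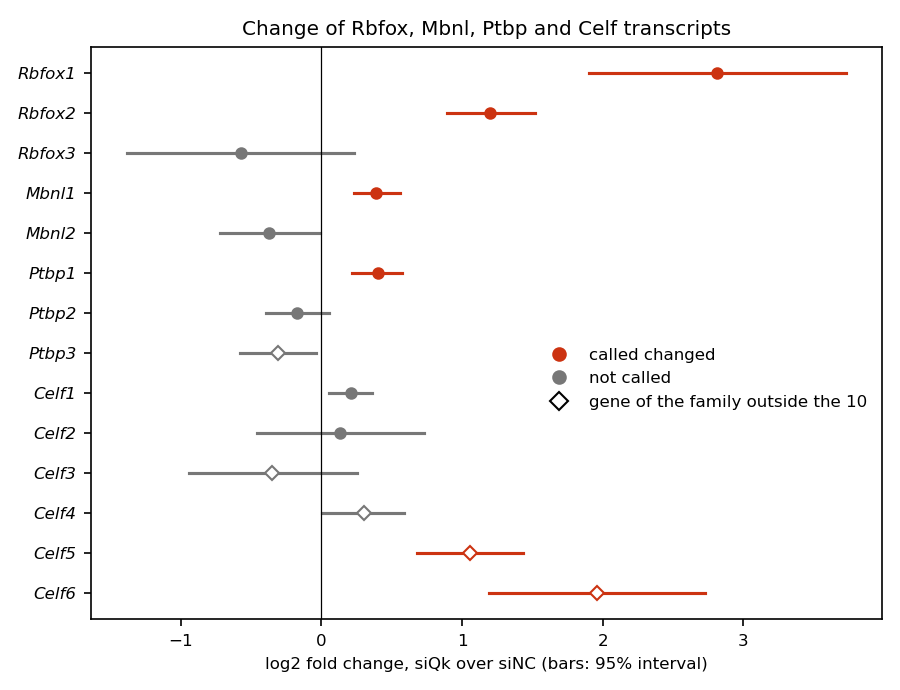
Log2 fold change of siQk over siNC (horizontal axis) with its 95% interval for the 9 tested members (circles) and the 5 other genes of the families (open diamonds); red marks transcripts called changed. Rbfox1, Rbfox2, Mbnl1, Ptbp1, Celf5 and Celf6 are red and to the right of 0, with Rbfox1 (2.81) and Celf6 (1.96) farthest out.

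Rbfox proteins act within a larger assembly of splicing regulators, LASR, and Ptbp1 acts with the cofactors Raver1 and Matr3. Of 9 genes for LASR proteins and Ptbp cofactors, all over the minimum, 6 rose and 0 were called lower, also by DESeq2 and edgeR's exact test, with none lower at an unadjusted P below 0.05. Over all tested genes, 13.8% were called higher and 17.2% lower. Their median log2 fold change was 0.34, against 0.01 for all tested genes, and 6 were called under each scaling. The largest was that of Hnrnph1, which binds G-rich RNA, 147 ± 7.19 RPKM in siNC against 250 ± 10.8 RPKM in siQk (SD, n = 3; log2 fold change 0.61, edgeR quasi-likelihood FDR = 0.00122). Hnrnpul2 rose by 0.40 and Raver1 by 0.39 on the log2 scale, from 34.4 ± 0.881 to 50.1 ± 1.55 RPKM for Raver1. Ddx5, Hnrnpm and Ilf2 rose as well, while Hnrnpc (0.062), Matr3 (0.10) and Raver2 (-0.25) were not called. The count depended on siQk replicate 1, without which 3 of the 9 were called.

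Transcripts known to be held down by Ptbp1, through skipped exons or retained introns, were read beside the rise of Ptbp1. Of 7 such transcripts, Ptbp2 among them, 0 were called by edgeR's quasi-likelihood test, 1 had an unadjusted P below 0.05, and DESeq2 and edgeR's exact test called 1 each. With library size only 2 were called, and 1 each under scaling by the upper quartile and with no filter on low counts. Their median log2 fold change was 0.0093, against 0.01 for all tested genes. Of all 12505 tested genes, 3879 were called by the quasi-likelihood test. Dlg4, which encodes PSD-95, had 27.9 ± 1.05 RPKM in siNC, 32.6 ± 2.49 RPKM in siQk (SD, n = 3 each) and a log2 fold change of 0.072 (SE = 0.069). Kif5a, a neuronal kinesin, had the smallest P (log2 fold change 0.36, edgeR quasi-likelihood FDR = 0.0445, not called). Sv2a, a synaptic vesicle protein, spread most widely, 33.8, 35.7 and 15.9 RPKM in siNC against 17.2, 11.2 and 26.4 RPKM in siQk, with overlap and a log2 fold change of -0.80.

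**Figure D4:**
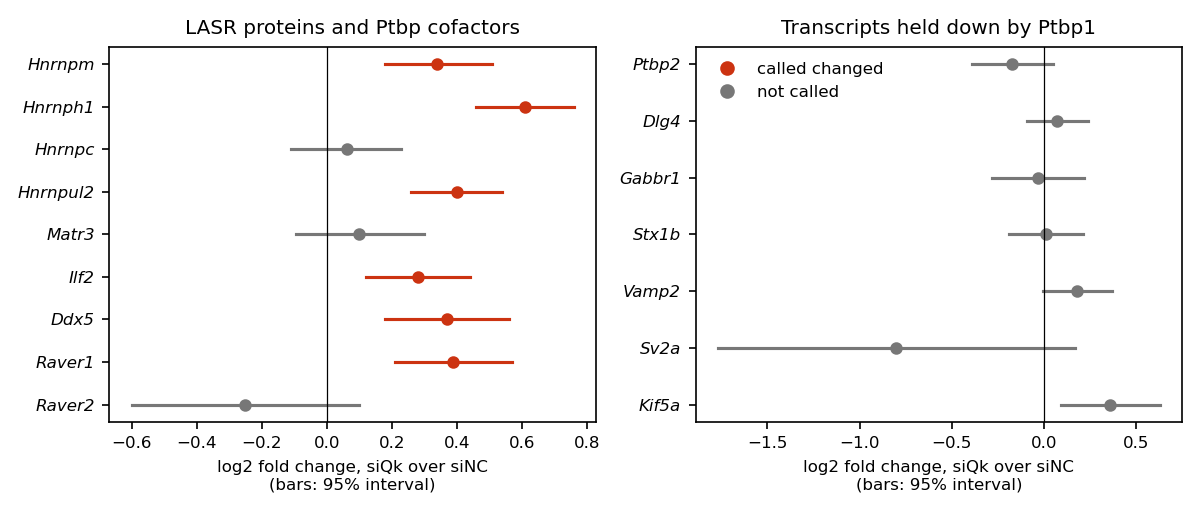
Log2 fold change of siQk over siNC (horizontal axes, each with its own range) with its 95% interval for 9 genes of LASR proteins and Ptbp cofactors (left) and 7 transcripts held down by Ptbp1 (right); red marks transcripts called changed. On the left 6 of 9 are red and above 0, and on the right none is.

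Several cell type markers differed between the groups as well. The counts of markers below stand beside 13.8% called higher and 17.2% called lower over all tested genes. Since Rbfox1, Rbfox3, Ptbp2 and several Celf genes are used by neurons, neuron markers were summed per library, giving 209 to 298 RPKM in siNC and 238 to 283 RPKM in siQk, with overlap. Of 12 neuron markers 10 were tested and 3 rose, Snap25 (log2 fold change 2.64), Nefl (1.61) and Map2 (0.57). Of the 7 tested and not called, Elavl3 (-0.61) and Tubb3 (-0.57) had log2 fold changes below 0 and the others above 0. The median log2 fold change of the tested neuron markers was 0.71, against 0.01 for all tested genes. In edgeR's quasi-likelihood test 8 had an unadjusted P below 0.05, with Elavl3 the lower one among them. Tubb3, Map2 and Elavl3 had the highest siNC means of the list (123, 58.8 and 34.3 RPKM), so that the sums mostly follow these genes. Stmn2 stayed at or below 0.0439 RPKM and Slc17a6 was at 0 in all 6 libraries. Without siNC replicate 2, by DESeq2, by edgeR's exact test and with library size only, 7 neuron markers were called, counted in either direction. Myelin and mature oligodendrocyte markers fell, with 7 of 10 called lower and sums of 3370 to 5920 RPKM in siNC against 1410 to 2150 RPKM in siQk, without overlap, and 3 of them were called without siQk replicate 1 or 2. Of 10 OPC markers 4 rose and 1 fell, with sums of 1050 to 1130 RPKM against 1270 to 1430 RPKM. Astrocyte markers had 1 higher and 4 lower of 8 tested genes, their sums overlapping (295 to 416 RPKM and 293 to 317 RPKM). Of 7 microglia markers only P2ry12 was tested, which was over the minimum only through siNC and was called lower. Fibroblast and vascular markers (1 of 10 tested, Kdr, not called) summed to at most 5.07 RPKM. Among 6 muscle markers, which bear on Mbnl1 and Rbfox1, none was tested, the sum was at most 0.269 RPKM, and Myod1 and Des were at 0 in all libraries. The part of the differences in myelin and OPC markers in the levels of the splicing regulators was not tested.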

How the data were processed

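Per the paper's methods, polyadenylated RNA was sequenced as 75-nt paired-end reads, aligned to mm10 with OLego and quantified with Quantas. Their versions and the gene annotation are not given in the sources used here. The authors deposited, for each library, estimated counts of tags per gene, which can carry decimals and are not normalized, with exon lengths. Recomputed from the tags, exon lengths and library totals, RPKM equalled the deposited RPKM values.

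After rounding of the tags, genes whose average logCPM exceeded 0 entered edgeR (4.0.16, under R 4.3.3 with limma 3.58.1) for its quasi-likelihood test. TMM factors were 0.899 to 0.987 in siNC and 1.04 to 1.07 in siQk. The group was the only term, the adjustment was Benjamini-Hochberg over all 12505 tested genes, and a step on simulated counts was run first. Each standard error was obtained from the log2 fold change and its F statistic, and 95% intervals use the test's t distribution. Ratios of RPKM were compared with exact permutation tests (scipy 1.17.1). Replicates of a group differed by a chi-square per degree of freedom of 36.5 or more, so that each library counted as 1 replicate. P-values measure the spread between these libraries, which the paper describes as independent replicates of cultured cells. Whether the cultures came from separate animals is not given in the sources used here. In siQk this spread may also include differences between the 3 siRNAs.

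The 10 members and all lists were chosen with earlier results of these data known. Named genes were the members, Qk, called list genes (at most 4 a list in detail) and defining markers. Older symbols (Rod1, Gm98, Mtap2) were matched by Entrez identifier. Gene positions and 3′UTRs, the longest per gene with at least 50 bases, came from GENCODE M21 (GRCm38). The libraries are not stated to keep strand, and reads of paralogs or overlapping genes could be split between them. Isoforms, exons and 1 further gene of the list of LASR proteins are not reported here. Alternatives comprised edgeR's exact test, DESeq2 1.42.0, 3 other normalizations, 2 other filters, the replicate number as a block, a stricter FDR, thinning, and each library left out in turn. Counts for the lists and values of the other family genes under these settings were added after seeing the data.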

Additional observations from a re-analysis of the deposited data

How the results depend on the processing

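Over the 16 alternative settings, 138 of 143 log2 fold changes of the tested members kept their direction and their side of the cutoff, and 4 gained a call: Celf1 under 3 settings and Mbnl2 without siNC replicate 3. The exception in direction was Celf2 without siNC replicate 3 (-0.086, in a range up to 0.49 with 1 library left out). The number of changed members was 4 in 11 settings, from 3 to 5 in all, and 3 to 5 with 1 library left out. An FDR below 0.05 changed no call, because the P cutoff was the stricter one. The number of changed transcripts was 3879, and with 1 library left out it ranged from 2478 (without siQk replicate 1) to 3704. Transcripts called higher made up 1730 of 3879 calls with TMM factors, 2234 of 4019 with upper quartile normalization and 2989 of 4354 with library size only.

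The log2 ratio of Celf2 to Celf1, at -0.0042 between the groups, changed sign without siNC replicate 2 (0.28) and without siQk replicate 3 (0.0044), and ranged from -0.29 to 0.28 with 1 library left out. The other 3 ratios kept their direction, but that of Rbfox1 to Rbfox2 was 0.33 in place of 1.66 with 0.1 RPKM added. The labels do not say whether same-numbered libraries were paired. Their deviations from the group means had correlations of -0.0528, -0.152 and -0.34, which showed no pairing but cannot settle the design. With the replicate number as a block 2796 transcripts and 4 members were called, and the ratios keep the same mean differences (-0.57 for Ptbp2 to Ptbp1). Dividing RPKM by the TMM factors moved 5 of 20 mean levels by more than 1 SD, among them Ptbp1 in siQk (67.6 RPKM). The cause of these changes was not tested. Depth limits Mbnl3 and, in siNC, Rbfox1 and Celf6.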

Other observations

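Srrm3, a splicing regulator of neuronal microexons, was the member of a list of 8 other tissue-type splicing regulators that rose. It was at 0.0827, 0.231 and 0.113 RPKM in siNC and at 1.25, 0.687 and 2.54 RPKM in siQk, without overlap (log2 fold change 3.22, SE = 0.58, edgeR quasi-likelihood FDR = 0.00735). Its average logCPM in siNC was -0.26, so that it passed the filter only through siQk. Its paralog Srrm4 stayed at or below 0.0091 RPKM. Of the other genes of the list, Rbm20, Rbm24 and Rbm38 were tested and not called, Rbm24 having the lowest log2 fold change (-0.63, edgeR quasi-likelihood FDR = 0.0508), and the epithelial regulators Esrp1 and Esrp2 and Rbm47 were under the minimum. DESeq2, edgeR's exact test and the fit without siNC replicate 1 each called 2 genes of the list. The 4 tested genes had a median log2 fold change of -0.093, against 0.01 for all tested genes. In the main fit, 13.8% of all tested genes were called higher and 17.2% lower.

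The transcripts whose log2 CPM followed that of Rbfox2 most closely over the 6 libraries were Tsc22d1 (Pearson r = 0.9993), Hnrnpa0 (r = 0.999) and Aftph (r = 0.9981). Their log2 fold changes were 0.49, 0.51 and 0.34, below the 1.2 of Rbfox2. Such values describe 6 points in 2 groups that share their libraries, and 33 genes had an r above 0.99 and 552 above 0.95.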
